A study of Mus musculus with 18 samples.

Results

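The miR-106b~25 cluster is a group of 3 microRNA hairpins, miR-106b, miR-93 and miR-25, that lie side by side in the Mcm7 gene. Its 6 mature arms, mmu-miR-106b-5p, mmu-miR-106b-3p, mmu-miR-93-5p, mmu-miR-93-3p, mmu-miR-25-3p and mmu-miR-25-5p (written below without the species prefix), were taken by name from a table of 1251 mouse microRNA entries, and all 6 were detected often enough to be tested. They were measured by small RNA sequencing in skin of 6 female SKH-1E Hairless mice, littermates of an outbred hairless strain that develops skin tumours under ultraviolet radiation. Each mouse (numbered 2, 3, 7, 8, 9 and 10) gave 1 sample of nonlesional chronically irradiated skin (CHR), 1 of papilloma (PAP), a benign precursor growth, and 1 of cutaneous squamous cell carcinoma (SCC), so that each type had n = 6 and the total was 18 libraries. All 18 samples, the CHR controls included, came from animals irradiated long term with a solar simulator, and unirradiated skin was not analysed here. The papillomas and carcinomas were whole lesions of low to intermediate grade and not purified tumour cells.

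A microRNA hairpin is cut from its primary transcript by Drosha and then by Dicer, and leaves a short duplex of a 5p and a 3p arm, of which one is usually loaded into Argonaute and kept. Bases 2 to 8 of the loaded arm, the seed, choose most of its messenger RNA targets. Mcm7 encodes a subunit of the replicative helicase that is expressed in proliferating cells under E2F control, and the cluster in its intron is a paralogue of the miR-17~92 cluster. Known targets of the seed shared by miR-106b-5p and miR-93-5p include the cell cycle inhibitor Cdkn1a, and miR-25 is known to act on the pro-apoptotic Bcl2l11 (Bim).

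The 6 mature sequences below, from RefSeq (GRCm38.p6), show why the arms fall into different target families, with the seed in capitals.
miR-106b-5p: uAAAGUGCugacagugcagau
miR-93-5p: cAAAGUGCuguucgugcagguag
miR-25-3p: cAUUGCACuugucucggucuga
miR-106b-3p: cCGCACUGuggguacuugcugc
miR-93-3p: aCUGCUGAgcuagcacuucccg
miR-25-5p: aGGCGGAGacuugggcaauugc
miR-106b-5p and miR-93-5p had the same seed, whereas each of the other 4 arms had a seed of its own within the cluster. Of the 1001 table entries with a RefSeq sequence, 7 carried the seed of miR-106b-5p and miR-93-5p and 6 that of miR-25-3p. The seeds of miR-106b-3p, miR-93-3p and miR-25-5p occurred in 1 entry each, the arm itself.

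The 3 hairpins lay on the minus strand of chromosome 5 of GRCm38, the build that the labels name as mm10, within 498 bases. Mir106b was at chr5:138165737-138165818, Mir93 at chr5:138165523-138165610 and Mir25 at chr5:138165321-138165404, with 126 bases between the first pair and 118 between the last. All 3 fell in intron 13 of the 15-exon transcript Mcm7-201 (chr5:138165162-138165909), on the strand of Mcm7. Mir93 and Mir25 were also overlapped by an exon of 1 other annotated Mcm7 transcript, and Mir106b by none. The hairpins are shown 5′ to 3′ with their annotated mature arms in capitals, so that the positions of the abundant and the scarce arm can be compared.
Mir106b: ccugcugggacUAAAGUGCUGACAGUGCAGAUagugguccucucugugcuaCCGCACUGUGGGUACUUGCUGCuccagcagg
Mir93: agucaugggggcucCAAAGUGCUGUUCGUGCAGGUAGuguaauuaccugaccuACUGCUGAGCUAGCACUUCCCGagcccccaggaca
Mir25: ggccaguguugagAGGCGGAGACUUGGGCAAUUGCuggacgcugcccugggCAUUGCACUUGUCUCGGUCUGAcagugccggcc

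The cluster is transcribed with its host, so the 250 bases before a RefSeq start site of Mcm7 are given as well (GRCm38.p6, chr5:138171884-138172133, minus strand, the more upstream of 2 windows for this gene in the RefSeq table). In GENCODE, the annotation used for the intron, Mcm7 spans chr5:138164583-138172422, so this window lies within the gene there.
Mcm7 promoter: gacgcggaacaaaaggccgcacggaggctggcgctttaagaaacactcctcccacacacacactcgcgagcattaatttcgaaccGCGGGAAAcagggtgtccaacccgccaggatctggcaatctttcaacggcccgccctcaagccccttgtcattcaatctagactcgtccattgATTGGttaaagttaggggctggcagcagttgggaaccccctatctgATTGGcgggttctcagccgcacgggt
The capitals mark matches on the opposite strand to an E2F-type motif, TTTNNCGC, beginning 165 bases before the start site, and to the CCAAT box, beginning 72 and 26 bases before it. Both motifs were searched on both strands. The E2F-type motif was present in 4.28% of 32851 promoter windows of the same length and the CCAAT box in 33.8%, and neither match shows that a factor was bound.

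Values are in log2 ppm, a scaled share of the usable reads, after quantile normalization, a step that sets values by rank towards a common distribution. A value is thus a relative level and ranks an arm within its library. The number of detected entries still differed between libraries. The lowest value, 3.32 (10 ppm), was read as not detected. Between 163 and 365 entries were detected per library. The median was lowest in PAP, at 206.5, against 281.5 in CHR and 301.5 in SCC. For scarce arms, a difference that involves PAP cannot be told apart from this difference in detection. The lowest detected value reached 5.77 in CHR, 4.50 in SCC and 6.83 in PAP, the last in mouse 10, whose PAP library had the fewest detected entries. Such a value follows from how many entries a library detected and is no measured limit of sensitivity. Each library was set against the mean of each type over the tested microRNAs, and 17 of 18 correlated best with their own type. The exception was the library labelled SCC of mouse 10, with r = 0.969 to the PAP mean and 0.906 to the SCC mean. Where leaving out either library of mouse 10 changed a call or moved a difference by over 1.5 times, the value without it is therefore given too. The depth behind a value is unknown. In whole tissue, fewer cells of a type and less RNA per cell cannot be told apart.

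The cluster was uneven in level, and the 3 best represented arms kept their order. miR-25-3p was above miR-93-5p in 18 of 18 libraries, by 0.95 ± 0.29 on the log2 scale (mean ± SD), and miR-93-5p was above miR-106b-3p in 18 of 18, by 2.52 ± 0.54. Every library also had miR-106b-3p above miR-106b-5p (by 4.51 ± 1.53), miR-93-3p and miR-25-5p. miR-25-3p made up 50.8% to 66.3% of the summed normalized level of the 6 arms (median 59.4%) and miR-93-5p 25.3% to 40.5% (median 31.3%). miR-106b-5p contributed at most 0.727%. The abundant arm was thus the 3p arm for miR-25 and miR-106b and the 5p arm for miR-93. These levels were not calibrated between sequences, so differences between arms describe the libraries. miR-25-5p and miR-93-3p could not be ordered, as miR-25-5p was the higher in 11 of 18 libraries. miR-106b-5p was below both in all 6 CHR libraries, but above each of them in 4 of 6 SCC libraries (below in 2).

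**Figure D1:**
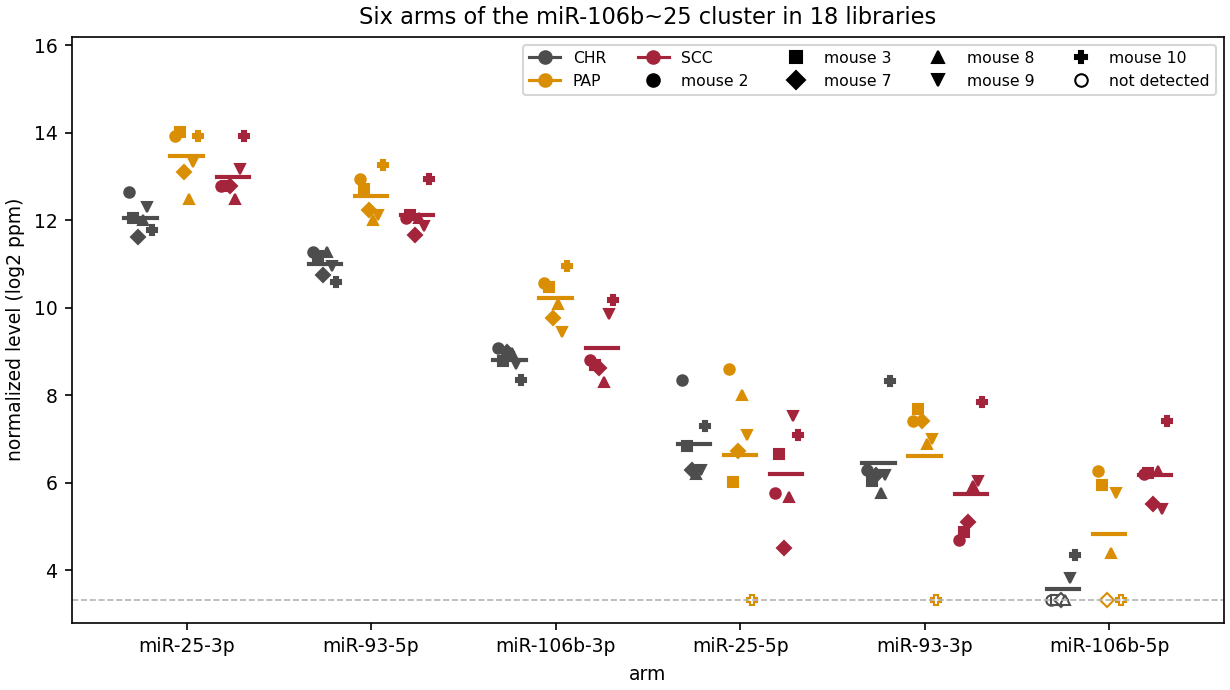
Normalized level (log2 ppm, vertical axis) of the 6 cluster arms in CHR, PAP and SCC, with 1 symbol per mouse, a horizontal bar at each mean of 6 libraries and open symbols for values not detected, which stand at the dashed line. miR-93-5p lies higher in every PAP and SCC library than in any CHR library, and miR-106b-5p is not detected in 4 of 6 CHR libraries.

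The comparison of PAP with CHR asks which arms differed between precursor growths and the irradiated skin around them. miR-93-5p, miR-25-3p and miR-106b-3p were higher in PAP by between 2.64- and 2.92-fold. miR-93-5p ranged from 10.60 to 11.28 in CHR (median 11.07) and from 12.002 to 13.26 in PAP (median 12.48). No PAP value of miR-93-5p fell among the CHR values. Its mean rose by 1.54 (standard error 0.27, 95% confidence interval 0.95 to 2.14, limma adjusted p = 0.000885), and it was higher in PAP in 6 of 6 mice. miR-106b-3p ranged from 8.36 to 9.09 in CHR (median 8.88) and from 9.44 to 10.96 in PAP (median 10.28), again without overlap. The rise of miR-106b-3p was 1.40 (standard error 0.28, 95% confidence interval 0.79 to 2.01, limma adjusted p = 0.00262). miR-25-3p, from 11.62 to 12.64 in CHR (median 12.03), lay between 12.50 and 14.03 in PAP (median 13.63). Only the PAP of mouse 8 was within the CHR range of miR-25-3p, while its mean rose by 1.40 (standard error 0.31, 95% confidence interval 0.73 to 2.08, limma adjusted p = 0.00489).

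miR-106b-5p, which shares its seed with miR-93-5p, was detected in 2 of 6 CHR libraries (mice 9 and 10, at 3.82 and 4.34) and in 4 of 6 PAP libraries (between 4.40 and 6.26). The 4 detected PAP values were above every CHR value, but it was not detected in the PAP of mice 7 and 10, whose lowest detected values were 6.72 and 6.83. The difference of 1.26 had a 95% confidence interval of 0.10 to 2.43 and did not pass (limma adjusted p = 0.0919). It passed without the PAP library of mouse 10, at 1.57 (limma adjusted p = 0.0363), and when undetected arms were given the lowest value detected in the same library, at 1.72 (limma adjusted p = 0.00981). The latter setting placed miR-106b-5p at 6.72 and 6.83 in the PAP of mice 7 and 10, above each of its detected PAP values. That pass thus follows from the placement and adds no evidence of a rise. For the scarce partner arms the intervals were wide. miR-93-3p differed by 0.16 (95% confidence interval -1.37 to 1.69, limma adjusted p = 0.893), but was not detected in the PAP of mouse 10, and the difference was 0.82 without that library (limma adjusted p = 0.179) and 1.19 without mouse 10 altogether (limma adjusted p = 0.00353). miR-25-5p differed by -0.25 (95% confidence interval -1.90 to 1.39, limma adjusted p = 0.83), and by 0.41 without the same PAP library.

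Of the 6 arms, 3 were higher in PAP at an adjusted p under 0.05, against 14% of the 293 tested microRNAs, and 0 were lower, against 18.4% (limma). The count was 4 without the PAP library of mouse 10. The median difference of the 6 arms was 1.33, beside -0.23 over all tested microRNAs. In 2 of the 6 arms the PAP and CHR samples did not overlap, as was the case for 16% of tested microRNAs.

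The comparison of SCC with CHR asks the same of the invasive tumours. Here miR-106b-5p had the largest difference of the 6 arms, miR-93-5p and miR-25-3p were again higher, and miR-106b-3p was close to its CHR level. miR-106b-5p was detected in all 6 SCC libraries, from 5.41 to 7.40 (median 6.21), each above the highest CHR value of 4.34. Its mean rose by 2.59 (standard error 0.35, 95% confidence interval 1.84 to 3.35, limma adjusted p = 7.77e-05), or 6.04-fold with undetected values at 10 ppm. Placed at the lowest value detected in each library instead, undetected values left a rise of 1.90 (limma adjusted p = 0.00266). It was 2.35 without the library labelled SCC of mouse 10 (limma adjusted p = 5.69e-05). The geometric mean of miR-106b-5p in SCC was 72.0 ppm, above the lowest detected value of every SCC library but under 100 ppm, so that raising all values under 100 ppm to 100 ppm left 0.13 of the difference (limma adjusted p = 0.543).

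miR-93-5p lay between 11.67 and 12.96 in SCC (median 12.06), above every CHR library, and its mean rose by 1.12 (standard error 0.28, 95% confidence interval 0.53 to 1.71, limma adjusted p = 0.00594), or 2.17-fold. Without the library labelled SCC of mouse 10, the highest of the 6, the rise was 0.95 (limma adjusted p = 0.00737). miR-25-3p lay between 12.50 and 13.93 in SCC (median 12.79), with 5 of 6 values above every CHR value. It rose by 0.93 (standard error 0.30, 95% confidence interval 0.29 to 1.57, limma adjusted p = 0.0238), and by 0.74 without the library labelled SCC of mouse 10 (limma adjusted p = 0.0355). This call was not kept in the fit that blocks on mouse, with replicate numbers as pairs (limma adjusted p = 0.0563), nor without mouse 3, 7 or 10 (limma adjusted p = 0.063, 0.0583 and 0.0566), although miR-25-3p was higher in SCC in 6 of 6 mice.

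miR-106b-3p, at 8.30 to 10.19 in SCC (median 8.75), was lower than in the CHR of the same mouse in 4 of 6 mice. The mean difference was 0.26 (95% confidence interval -0.48 to 0.996, limma adjusted p = 0.547), and 0.04 without the library labelled SCC of mouse 10. miR-93-3p and miR-25-5p had lower means in SCC, by -0.71 (95% confidence interval -1.89 to 0.46, limma adjusted p = 0.303) and -0.68 (95% confidence interval -1.78 to 0.42, limma adjusted p = 0.296), neither of which passed. Without the library labelled SCC of mouse 10 the difference of miR-93-3p was -1.13 (limma adjusted p = 0.0526). miR-93-3p ran from 5.77 to 8.32 in CHR and from 4.70 to 7.85 in SCC. Both extremes at the top of these ranges were from mouse 10. Each of these arms was lower in SCC in 5 of 6 mice.

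By count, 3 of 6 arms were higher in SCC than in CHR, against 20.1% of tested microRNAs, and 0 were lower, against 22.2% (limma). The median difference was 0.59 for the 6 arms and 0.11 over all tested microRNAs. The SCC and CHR samples did not overlap in 2 of the 6 arms, beside 20.5% of tested microRNAs.

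Between SCC and PAP, the step from precursor to carcinoma, 0 of 6 arms were called by limma or by an exact permutation test per microRNA, while 2 had an unadjusted limma p under 0.05. Over all tested microRNAs, limma called 11.6% and the exact test 0. miR-106b-3p had the lowest adjusted p of the 6 arms, with a difference of -1.14 (95% confidence interval -1.98 to -0.30, limma adjusted p = 0.0876) and lower values in SCC in 5 of 6 mice. Without the library labelled SCC of mouse 10 it fell by 1.36 and passed (limma adjusted p = 0.0258), which is 1 arm called in place of 0. miR-106b-5p differed in the other direction, by 1.33 (95% confidence interval 0.071 to 2.59, limma adjusted p = 0.156), and by 0.18 when undetected arms were given the lowest value detected in the same library (limma adjusted p = 0.789). That setting placed miR-106b-5p at 6.72 and 6.83 in the PAP of mice 7 and 10, above each of its detected PAP values. The differences of miR-93-5p (-0.43, 95% confidence interval -1.09 to 0.24) and miR-25-3p (-0.47, 95% confidence interval -1.22 to 0.27) did not pass (limma adjusted p = 0.368 for both). miR-93-3p differed by -0.87 (limma adjusted p = 0.475), by -1.53 without the PAP library of mouse 10 (limma adjusted p = 0.0779) and by -1.95 without mouse 10 (limma adjusted p = 0.00272). With undetected arms at the lowest value detected in the same library, miR-93-3p differed by -1.45 and passed (limma adjusted p = 0.0358). miR-25-5p differed by -0.43 (limma adjusted p = 0.775), and by -1.09 without the same PAP library (limma adjusted p = 0.241). The types overlapped in all 6 arms, where 1.37% of tested microRNAs did not overlap, and the median difference was -0.45 for the 6 arms and 0.21 over all tested microRNAs.

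**Figure D2:**
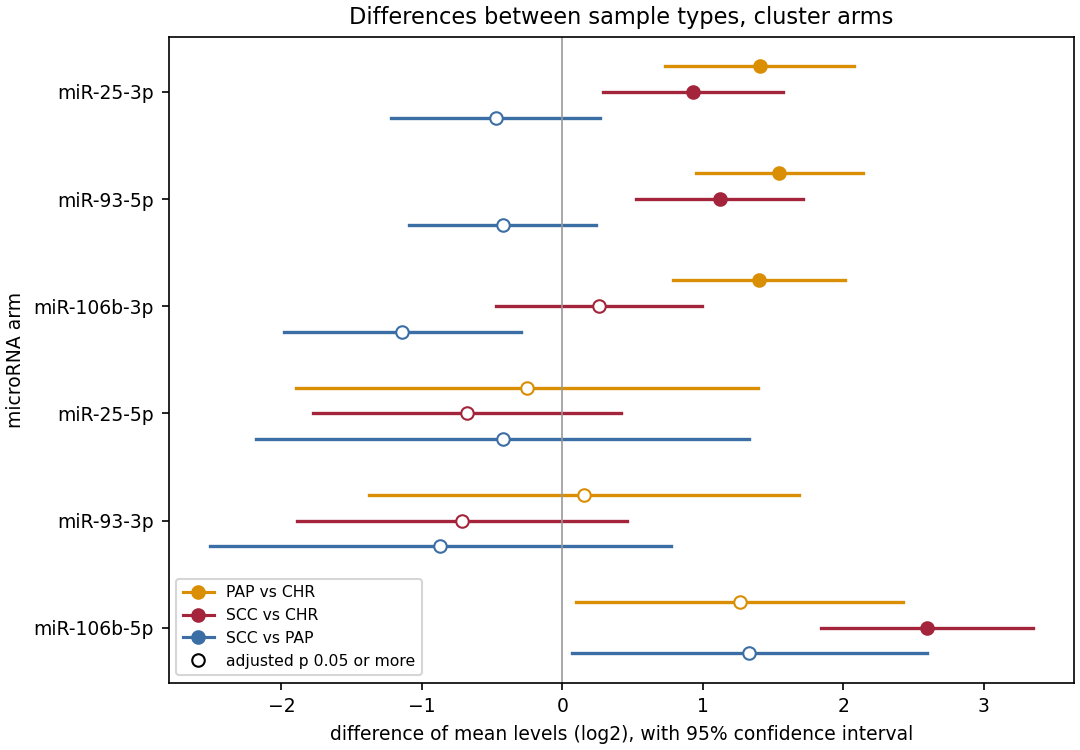
Difference of mean levels (log2, horizontal axis) with its 95% confidence interval for each arm in the comparisons PAP vs CHR, SCC vs CHR and SCC vs PAP, from limma on 6 libraries of each type, with filled points for an adjusted p under 0.05. miR-25-3p and miR-93-5p are higher in both lesions, miR-106b-3p passes only in PAP vs CHR (1.40) and miR-106b-5p only in SCC vs CHR (2.59).

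That one arm passed in PAP and its partner in SCC does not by itself show that they differed, so differences between arms were taken within each library and compared between types with a two-sided exact permutation test, adjusted over 18 tests. miR-93-5p minus miR-25-3p lay within a narrow range. It was -1.06 ± 0.27 in CHR, -0.92 ± 0.31 in PAP and -0.87 ± 0.32 in SCC (SD, n = 6), and no comparison passed (exact permutation test, adjusted p = 0.623 for PAP vs CHR, 0.457 for SCC vs CHR and 0.887 for SCC vs PAP). The differences between the types were 0.14, 0.19 and 0.049, and without the PAP library of mouse 10 those that involve PAP were 0.092 and 0.098. Over the 18 libraries these were also the most alike profiles. With each profile centred on its own mean, miR-25-3p was the nearest of 292 tested microRNAs to miR-93-5p and the reverse, with a root mean square difference of 0.29 where the median over all others was 1.25 and 1.26. miR-182-5p (0.47) and miR-27b-3p (0.48) came next for miR-93-5p, ahead of miR-106b-3p (0.52), and miR-106b-3p (0.49) and miR-125b-1-3p (0.53) for miR-25-3p.

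The gap between the arms of miR-106b was narrower in SCC in the main comparison, though this call was not kept under several alternatives. miR-106b-5p minus miR-106b-3p was -5.24 ± 0.67 in CHR, -5.38 ± 1.49 in PAP and -2.91 ± 0.83 in SCC (SD, n = 6). It was higher in SCC than in CHR by 2.33, in 6 of 6 mice, and than in PAP by 2.47, in 5 of 6 mice (exact permutation test, adjusted p = 0.0167 for both). miR-106b-5p also gained on miR-93-5p, by 1.48 against CHR and 1.76 against PAP, and on miR-25-3p, by 1.66 and 1.81 (exact permutation test, adjusted p = 0.0167 for each). These values rest on where an undetected miR-106b-5p is placed. Placed at the lowest value that its library detected, the gain on miR-106b-3p was 1.64 against CHR and 1.32 against PAP and did not pass (exact permutation test, adjusted p = 0.0779 and 0.127), and the others were between 0.61 and 0.97 (exact permutation test, adjusted p = 0.191 for each). In the PAP of mice 7 and 10 that value was 6.72 and 6.83, above each detected PAP value of miR-106b-5p. All 6 calls were also lost without mouse 3 (exact permutation test, adjusted p = 0.0536 for each) or mouse 7 (0.0612 for each), in which the differences were between 1.38 and 2.55, and 2 of them, on miR-25-3p and miR-106b-3p against PAP, without mouse 10 (0.0536 for both). Between PAP and CHR, the 3 differences that hold miR-106b-5p did not pass, at -0.28 against miR-93-5p, -0.14 against miR-25-3p and -0.14 against miR-106b-3p (exact permutation test, adjusted p = 0.887 for each). Without the PAP library of mouse 10, in which miR-106b-5p was not detected, they had the other sign, at 0.16, 0.25 and 0.31, and did not pass either (exact permutation test, adjusted p = 0.76, 0.653 and 0.653).

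For miR-93 and miR-25 the gap between the abundant and the scarce arm was wider in SCC than in CHR, again with calls lost when any of several mice was left out. miR-93-5p minus miR-93-3p was 4.54 ± 1.15 in CHR and 6.38 ± 0.86 in SCC (SD, n = 6), a difference of 1.83 found in 6 of 6 mice (exact permutation test, adjusted p = 0.0167). miR-25-5p minus miR-25-3p was -5.18 ± 0.68 in CHR and -6.79 ± 0.90 in SCC (SD, n = 6), a difference of -1.61 found in 5 of 6 mice (exact permutation test, adjusted p = 0.0195). In PAP against CHR the same differences were 1.39 and -1.66 and did not pass (exact permutation test, adjusted p = 0.234 and 0.182), and each includes the PAP library of mouse 10, in which neither scarce arm was detected. Without that library they were 0.59 and -0.90 (exact permutation test, adjusted p = 0.453 and 0.312), whereas the difference of the miR-25 arms passed without mouse 8, at -2.25 (0.0408). In SCC against PAP, miR-93-5p minus miR-93-3p differed by 0.44 (exact permutation test, adjusted p = 0.887), by 0.70 without the library labelled SCC of mouse 10 (0.74), and passed without the PAP library of mouse 10, at 1.24 (0.0303), and without mouse 10, at 1.498 (0.0286). For miR-25 the difference in SCC against PAP was 0.049 (exact permutation test, adjusted p = 0.963), and -0.70 without the PAP library of mouse 10 (0.453). Paired by mouse, the 8 differences called for these arms and for those of miR-106b each had an adjusted p of 0.141 (exact sign-flip test). The smallest p of that test with 6 pairs is 0.0312, so most of the 18 tests would have had to reach it for any to pass, and the loss of these calls says little about them. The calls on the arms of miR-93 and miR-25 did not pass without mouse 2 (exact permutation test, adjusted p = 0.0612 and 0.0714), 3 (0.0536 for both) or 7 (0.0612 and 0.0714), nor for miR-93 without mouse 9 (0.0536) or for miR-25 without mouse 10 (0.0635). Across these fits the differences stayed at 1.63 to 2.09 for miR-93 and -1.999 to -1.34 for miR-25. With 5 libraries of each type the exact test has fewer possible splits. The lost calls alone thus cannot tell a dependence on 1 mouse from fewer samples.

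**Figure D3:**
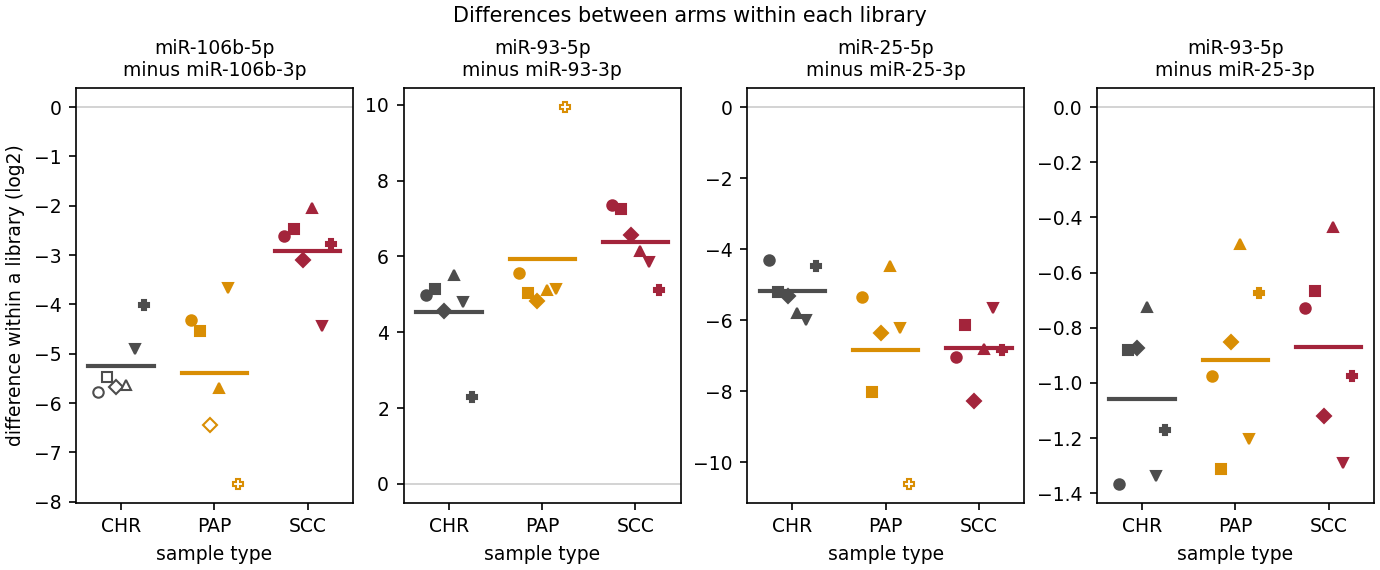
Difference between a pair of arms within each library (log2, vertical axes, each panel with its own scale) in CHR, PAP and SCC, with 1 symbol per mouse, a bar at each mean of 6 libraries and open symbols where an arm was not detected. miR-106b-5p minus miR-106b-3p is at -2.91 in SCC and -5.24 in CHR on average, whereas miR-93-5p minus miR-25-3p stays between -1.37 and -0.44 in all 18 libraries.

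With the type means removed, the arms fell into sets that varied together from library to library. miR-93-5p and miR-25-3p correlated at r = 0.805 over the 18 libraries, and miR-106b-3p with them at 0.707 and 0.711. The scarce arms miR-93-3p and miR-25-5p correlated at 0.665, and miR-106b-5p with them at 0.620 and 0.446, but with its own partner miR-106b-3p at 0.018. These are descriptions only, as all arms of a library share its depth and normalization. The scarce arms also share undetected values in the PAP of mouse 10. The profiles nearest to miR-106b-5p were those of miR-186-5p (root mean square difference 0.96), miR-872-5p (0.997) and miR-126-3p (1.01), while miR-93-5p was in place 22 and miR-106b-3p in place 110 of 292.

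The relatives of the cluster by seed or by paralogy were followed next. Of 25 listed arms of the miR-17, miR-18, miR-19 and miR-92/25 seed groups and of the paralogous clusters that are not members, 8 were tested, and the rest were detected in fewer than 6 libraries. In PAP against CHR, 5 of the 8 were higher, against 14% of tested microRNAs, and 1 lower, against 18.4% (limma). In SCC against CHR 4 were higher, against 20.1%, and 1 lower, against 22.2%. With 1 mouse left out, 3 to 6 of the 8 were called in PAP (3 without mouse 7 or mouse 9) and 4 or 5 in SCC. Between SCC and PAP 0 passed, and 0 had an unadjusted p under 0.05 by limma. The sequences of the tested seed mates, from RefSeq with the seed in capitals, show where they differ from the cluster arms outside the seed.
miR-17-5p: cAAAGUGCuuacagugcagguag
miR-20a-5p: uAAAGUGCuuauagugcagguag
miR-92a-3p: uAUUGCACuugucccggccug
miR-92b-3p: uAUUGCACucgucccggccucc
miR-93-5p and miR-17-5p were 3 single-base edits apart, miR-106b-5p and miR-20a-5p 5, miR-25-3p and miR-92a-3p 4, and miR-25-3p and miR-92b-3p 6. How reads that fit several of these were divided is not given in the sources used here, so values of the most similar arms are uncertain.

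The tested arms with the miR-17 seed had higher means in both lesions than in CHR. miR-17-5p, from the paralogous cluster on chromosome 14, was higher in PAP by 2.32 (limma adjusted p = 0.000405) and in SCC by 2.41 (limma adjusted p = 0.000232), where miR-93-5p was higher by 1.54 and 1.12. miR-20a-5p had detection like that of miR-106b-5p, in 2 of 6 CHR, 4 of 6 PAP and 6 of 6 SCC libraries. It was higher by 1.90 in PAP (limma adjusted p = 0.0367) and 2.998 in SCC (limma adjusted p = 1.93e-05). In PAP the call was not kept without the library of mouse 10 (1.56, limma adjusted p = 0.0668) or without mouse 3, 8, 9 or 10 (limma adjusted p = 0.11, 0.119, 0.0904 and 0.0916). Both arms of this seed group that begin with U, miR-106b-5p and miR-20a-5p, stood near the lowest value in CHR (means 3.58 and 3.47). Those that begin with C, miR-93-5p and miR-17-5p, stood at 11.01 and 6.78. In the miR-92/25 seed group, miR-92a-3p and miR-92b-3p begin with U and stood at 16.28 and 11.16 in CHR. There miR-25-3p, which begins with C, stood at 12.07, and a part of the first base was not tested. miR-20b-5p and miR-106a-5p, which have the same seed and also begin with C, were detected in 0 of 18 libraries.

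The arms with the miR-92/25 seed did not move as 1 group. miR-92a-3p, among the 10 highest entries of every library, was higher in PAP by 1.13 (limma adjusted p = 0.00938), or by 0.96 with mouse 7 left out (limma adjusted p = 0.0508), and its difference in SCC was 0.49 (95% confidence interval -0.22 to 1.19, limma adjusted p = 0.255). miR-92b-3p, from its own locus on chromosome 3, was lower in PAP (-3.06, limma adjusted p = 0.0292) and in SCC (-2.50, limma adjusted p = 0.000223), with no overlap between either lesion and CHR. In PAP it was not detected in mouse 10, and without that library the difference was -2.10 (limma adjusted p = 0.0027). The call in PAP was not kept without mouse 3, 7 or 9 (limma adjusted p = 0.0735, 0.0578 and 0.0546). miR-32-5p, miR-363-3p and miR-367-3p carry this seed and were detected in 0 of 18 libraries. Of the other tested relatives, miR-92a-1-5p, the partner arm of miR-92a-3p in the miR-17~92 cluster, was higher by 1.70 in PAP and 1.85 in SCC (limma adjusted p = 0.0047 and 0.00367). miR-18a-3p was higher in PAP by 1.47 (limma adjusted p = 0.0234), with a difference of 0.51 in SCC (limma adjusted p = 0.487) that was 0.28 without the library of mouse 10. Its call in PAP was not kept with mouse as a block, by which replicate numbers are pairs (limma adjusted p = 0.0756), nor without mouse 7, at 0.99, or mouse 8, 9 or 10 (limma adjusted p = 0.058, 0.0693, 0.0611 and 0.0508). miR-19b-3p, whose seed is absent from the miR-106b~25 cluster, was higher in SCC by 1.67 (limma adjusted p = 0.0122), a call not kept once mouse 3 was left out (limma adjusted p = 0.0521), with a difference of 0.80 in PAP (limma adjusted p = 0.308) that was 0.27 without the library of mouse 10. miR-17-3p differed by 0.61 in PAP, 1.02 without the library of mouse 10, and by 1.29 in SCC, and did not pass (limma adjusted p = 0.568, 0.32 and 0.0783), but passed in SCC with mouse as a block (limma adjusted p = 0.0329).

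**Figure D4:**
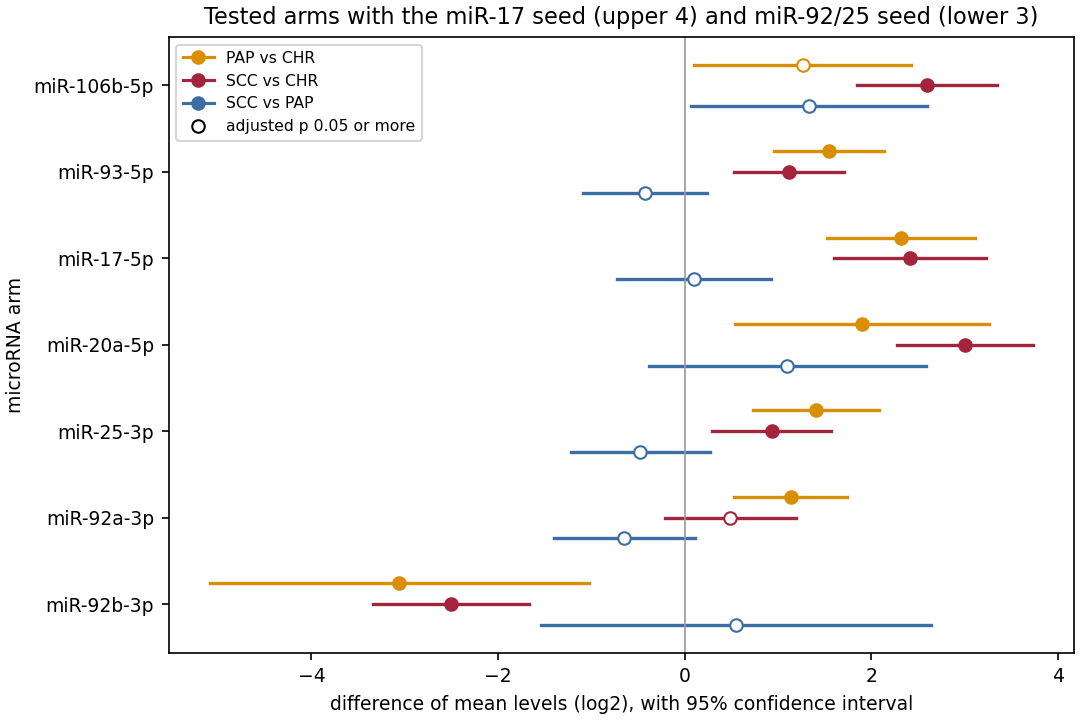
Difference of mean levels (log2, horizontal axis) with its 95% confidence interval for the tested arms that carry the seed of miR-106b-5p and miR-93-5p (upper 4) or that of miR-25-3p (lower 3), from limma on 6 libraries of each type, with filled points for an adjusted p under 0.05. All 4 arms of the upper group have positive differences against CHR, whereas miR-92b-3p is lower in both lesions (-3.06 and -2.50) and miR-25-3p higher.

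MicroRNAs taken as markers of epithelium and of other cells also differed between the types, and their part in the differences of the cluster arms was not tested. In PAP against CHR, 4 of 7 epithelial markers were higher and 0 lower, and 1 of 2 tested erythroid markers was higher (limma). Lower were 3 of 3 tested skeletal muscle markers, 3 of 5 of fibroblasts and smooth muscle and 2 of 4 tested leukocyte markers. Neither endothelial marker passed. Over all tested microRNAs, 14% were higher in PAP and 18.4% lower. The summed level of the epithelial list was 17.50 to 18.51 in CHR, for PAP 17.77 to 18.55 and for SCC 17.50 to 18.54 (log2), so that epithelial microRNAs were abundant in every library. The skeletal muscle list stood at 15.44 to 15.98 in CHR, in PAP at 3.32 to 12.44 and in SCC at 5.16 to 14.24. miR-133b-3p and miR-206-3p were not detected in any PAP library, and miR-1a-3p was not detected in any PAP or CHR library. The fibroblast and smooth muscle list ran from 14.30 to 15.06 in CHR, but in PAP from 11.001 to 14.04 and in SCC from 12.53 to 15.51, and the leukocyte list from 12.71 to 13.35, 9.42 to 11.77 and 11.23 to 13.04, with miR-155-5p not detected in any CHR, PAP or SCC library. In SCC against CHR, 3 of 7 epithelial, 2 of 2 endothelial, 1 of 4 tested leukocyte and 1 of 2 tested erythroid markers were higher. Lower were 1 of 3 tested skeletal muscle, 1 of 5 fibroblast and smooth muscle, 1 of 4 tested leukocyte and 1 of 2 tested erythroid markers. The 2 tested erythroid markers thus went opposite ways. Over all tested microRNAs, 20.1% were higher in SCC and 22.2% lower, so 1 call in a short list says little. In SCC against PAP, 3 of 3 tested skeletal muscle, 2 of 5 fibroblast and smooth muscle, 2 of 2 endothelial and 1 of 4 leukocyte markers were higher. Lower were 1 of 7 epithelial and 1 of 2 erythroid markers. Over all tested microRNAs, limma called 11.6% in either direction there, while the exact permutation test called 0. The endothelial list was at 7.84 to 9.35 in CHR, for PAP at 7.53 to 9.004 and for SCC at 9.26 to 11.17, and the erythroid list at 16.69 to 17.84, 16.70 to 18.24 and 14.87 to 17.87, with miR-144-3p not detected in any library.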

How the data were processed

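Small RNA libraries of 18 skin samples were used, 6 each of CHR, PAP and SCC, grouped by their labels. The authors trimmed adapters, aligned the reads by BLAST with miRBase entries and scaled each microRNA to ppm of usable reads. The deposited values are log2 ppm. That they are quantile normalized and never below 3.32 was read from the values, and the values of a library are therefore relative levels. Read totals were not used, so the depth is unknown and counting error could not be given. Undetected microRNAs stand at 3.32 whatever the depth of their library, which can over- or understate differences of scarce arms.

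The 293 of 1251 entries above the lowest value in at least 6 libraries were tested with limma 3.58.1 in R 4.3.3 (6 against 6, two-sided, no block), with Benjamini-Hochberg adjustment over all 293 and calls at an adjusted p under 0.05. limma was tested on simulated data. Differences between arms within a library were compared with exact permutation tests in Python 3.11.15, adjusted over 18 tests. Sequences and promoters are from RefSeq tables (29 of 31 listed arms matched) and the intron from GENCODE, both on GRCm38. The members and all lists were chosen with earlier results of these data known. Named were the 6 members, every tested relative, and for miR-106b-5p, miR-93-5p and miR-25-3p the 3 tested microRNAs with the smallest root mean square difference of centred profiles. miR-126, miR-142 and miR-486 were matched under the names the table uses.

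The replicate number is the mouse, so samples that share it are paired by design. Deviations of paired samples from their type means had a mean correlation of 0.025 for PAP with CHR (over 0.1 in 2 of 6 mice), -0.068 for SCC with CHR (1 of 6) and 0.058 for SCC with PAP (2 of 6). Alternatives were other detection filters, a fit on all types, mouse as a replicate block, centred libraries, an exact and an unmoderated test, 2 other placements of low values and leaving out each mouse. Leaving out the PAP or the SCC library of mouse 10 was added after seeing the data.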

Additional observations from a re-analysis of the deposited data

Results flagged for a closer look

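In each of the 18 combinations of arm and sample type, the highest and lowest of 6 samples were set against Dixon's 95% critical value, which chance passes in about 1 in 20 groups, and 3 samples passed it, all from mouse 10. miR-93-5p was at 12.96 in the library labelled SCC of mouse 10, where the next highest SCC value was 12.12. miR-93-3p was at 8.32 in the CHR of mouse 10, above a next value of 6.30. In the PAP of mouse 10 miR-93-3p was not detected (3.32), below a next value of 6.88, in a library whose lowest detected value was 6.83.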

How the results depend on the processing

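The rises of miR-93-5p (PAP and SCC against CHR), miR-106b-3p and miR-25-3p (PAP against CHR) kept their direction and their call under every alternative tried. The other calls on the cluster arms each changed under at least 1 alternative, and the cause was not tested.

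With undetected arms at the lowest value detected in the same library, miR-106b-5p passed in PAP against CHR (1.72), and miR-25-5p changed sign there (0.33). For miR-106b-5p this placed the PAP of mice 7 and 10 at 6.72 and 6.83, above each of its detected PAP values. In SCC against PAP 2 arms were then called, miR-106b-3p (-1.14) and miR-93-3p (-1.45). miR-106b-3p was detected in 18 of 18 libraries, so its own values and difference were unchanged. Only its limma adjusted p moved, from 0.0876 to 0.0463. The differences between arms in SCC against CHR then did not pass, at 0.78 (miR-106b-5p minus miR-93-5p), 0.97 (minus miR-25-3p), 1.64 (minus miR-106b-3p), 1.83 (miR-93) and -1.61 (miR-25), nor did those against PAP, at 0.61, 0.65 and 1.32 for miR-106b-5p. The arms of miR-93 and miR-25 were detected in every CHR and SCC library. Their differences of 1.83 and -1.61, and the unadjusted p of each, were thus unchanged. Only the adjustment shared with the other tests took these calls. Signs changed for miR-106b-5p in PAP against CHR (0.17, 0.31 and 0.32) and for the arms of miR-25 in SCC against PAP (-0.54). By construction, raising all values to 100 ppm hides miR-106b-5p. Its rise in SCC was then 0.13, its differences from miR-93-5p, miR-25-3p and miR-106b-3p in SCC against CHR were -0.99, -0.80 and -0.13, and those from miR-93-5p and miR-25-3p against PAP 0.55 and 0.60. miR-25-5p was 0.22 in PAP against CHR and the arms of miR-93 -0.10 in SCC against PAP.

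With mouse as a replicate block, miR-25-3p did not pass in SCC against CHR (0.93). The 8 differences between arms, at 1.48, 1.66, 2.33, 1.83 and -1.61 against CHR and 1.76, 1.81 and 2.47 against PAP, did not pass either, in a test that with 6 pairs could hardly have passed after adjustment. Among the relatives the block changed the calls of miR-18a-3p in PAP and miR-17-3p in SCC, and no other call on the arms or relatives against CHR. In a fit on all types miR-106b-3p passed in SCC against PAP (-1.14), with 1 arm called.

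For the relatives, placing undetected values at the lowest detected value gave calls for miR-19b-3p (1.53) and miR-17-3p (1.35) in PAP and took that of miR-19b-3p in SCC (1.05). The limit of 100 ppm took the calls of miR-20a-5p in PAP (0.068) and SCC (0.21), and of miR-19b-3p in SCC. Those of miR-20a-5p and miR-92b-3p in PAP did not pass without the filter on detection, nor did that of miR-20a-5p by the exact or the unmoderated test.

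With a mouse or a library of mouse 10 left out, the number of arms called was 3 to 5 in PAP against CHR and 0 to 2 in SCC against PAP. In PAP against CHR, miR-106b-5p was 0.93 to 1.72, miR-93-3p -0.14 to 1.19 and miR-25-5p -0.66 to 0.49. In SCC against CHR, miR-106b-3p was -0.052 to 0.44 and miR-25-3p 0.68 to 1.09. In SCC against PAP, miR-106b-3p was -1.45 to -0.99 and miR-25-5p -1.27 to 0.056. For miR-106b-5p, the differences from miR-93-5p, miR-25-3p and miR-106b-3p were -0.59 to 0.40, -0.50 to 0.47 and -0.46 to 0.56 in PAP against CHR, 1.34 to 1.64, 1.45 to 1.85 and 2.08 to 2.71 in SCC against CHR, and 1.23 to 2.13, 1.35 to 2.21 and 1.99 to 3.12 in SCC against PAP. For the arms of miR-93 they were 1.63 to 2.09 and of miR-25 -1.999 to -1.34 in SCC against CHR, and in SCC against PAP -0.70 to 0.53 for miR-25, with -0.070 to 0.12 for miR-93-5p minus miR-25-3p.

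Over all tested microRNAs, the count in SCC against PAP was 34 and ranged from 1 to 59 with 1 mouse left out, so the share given beside the arms there is itself unsteady. It was 2 without the filter on detection, 21 with detection in at least 12 libraries, 6 with the unmoderated model, 0 with the exact test, 80 with undetected values at the lowest detected value and 2 with the limit of 100 ppm.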
